A study of Drosophila melanogaster with 6 samples.

Results

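The regions described here are Gcn5 sites on the autosomal arms 2L, 3L and 3R of Drosophila melanogaster that had a peak in S2 cells and none in either library of Kc cells. They were chosen by position. The peaks of the 3 Gcn5 ChIP-seq lists on these arms were pooled, peaks sharing at least 1 bp were merged into union regions, and a region was kept when only the S2 list had a peak in it. The rule found 1132 S2-only regions among 4608 union regions on the 3 arms, of which 3093 held an S2 peak, so that 36.6% of the S2 regions had no Kc peak (exact 95% interval 34.9 to 38.3%). Over all sequences of the 3 lists there were 7972 union regions. Each S2-only region consisted of 1 S2 peak, because the peaks within a list did not overlap each other.

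Gcn5 is the lysine acetyltransferase of the SAGA and ATAC coactivator complexes. These complexes are brought to promoters and enhancers by sequence-specific activators, where Gcn5 acetylates the tail of histone H3, and they are known for their part in inducible and cell-type-specific transcription. Kc and S2 are continuous lines started from dissociated Drosophila embryos. Both resemble blood cells in many of their genes, Kc is regarded as female and S2 as male, and they differ in which enhancers are active. CP190 is an insulator protein that binds DNA-bound partners through its BTB domain and also occupies many promoters.

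The series had 6 samples, of which 3 were Gcn5 immunoprecipitations with a peak list and 3 were inputs that were not analysed here. S2 cells and one Kc culture were treated with double-stranded RNA against GFP, which serves as a control since flies lack that gene, and the other Kc culture with double-stranded RNA against CP190. The dose was 90 µg for 6000000 cells, and 5 µg of a rabbit polyclonal antibody to Gcn5 was used per immunoprecipitation. All S2 values therefore come from control cells, no S2 library with CP190 RNAi was used here, and Kc sites of either treatment count as Kc sites.

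Each condition had 1 library, so that no difference had a replicate check and no p-value is given. On the 3 arms the S2 GFP RNAi list held 3134 peaks, the Kc GFP RNAi list 2873 and the Kc CP190 RNAi list 2274. The lists give no reads, so the depth of the libraries is unknown. A region without a Kc peak is one where the Kc lists have no call, and Gcn5 may still have been bound there below the calling threshold. The S2 list also writes its sequence names in another form than the Kc lists, so the cell line and the way each list was made cannot be told apart. The intervals below cover counting error over regions and not the spread between libraries. They also treat regions as independent, although neighbouring regions tended to be alike, so they may be too narrow. Positions are those of the dm3 build, counted from 1. No genome or annotation of that build was used here, so the regions carry no gene names and their sequences are not shown.

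The strongest S2-only regions were prominent S2 peaks. The peak score is the authors' own value, and it ranks peaks within the S2 list. The strongest S2-only region lay on 2L at 9656891 to 9658089, with a width of 1199 bp and a score of 1944.77, which placed it at rank 34 of the 3093 S2 regions. The nearest Kc peak, of the GFP RNAi list, was 39.7 kb away, and the next S2 region to its right was S2-only as well. It was the single S2-only region among the 100 highest-scored S2 regions, and none was among the highest 10. Of the highest 500 S2 regions 26 were S2-only, a share of 5.20% (3.42 to 7.53%), against 36.6% of all S2 regions.

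The other leading regions of 2L differed in their surroundings. The region at 2L 16846732 to 16849428 had a score of 1113.18 and a width of 2697 bp, and a Kc GFP RNAi peak lay 2.75 kb from it. The region at 2L 16550957 to 16552088 had a score of 960.6, with a Kc GFP RNAi peak 1.02 kb away. Both lay between S2 regions that were shared with Kc cells, as single S2 sites beside Kc sites. The region at 2L 4109189 to 4111494, with a score of 666.97, lay 44.8 kb from the nearest Kc peak, and the S2 regions on both of its sides were S2-only. The region at 2L 35125 to 36162, with a score of 833.28, belonged to a run of S2-only regions at the end of the arm that is described below.

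On 3L the strongest S2-only region, at 14598223 to 14599277, had a score of 986.11 and was rank 186 among the S2 regions. A Kc GFP RNAi peak began 1048 bp from its edge. The region at 3L 10313655 to 10315477 had a score of 929.33 and lay 35.1 kb from the nearest Kc peak. It opened a run of 6 S2-only regions over 107 kb without a Kc peak. The region at 3L 3752572 to 3753394 was narrow for its score, with 823 bp and a score of 871.96, and lay 11.0 kb from a Kc peak. The region at 3L 4001669 to 4002773, with a score of 765.38, missed a Kc CP190 RNAi peak by 190 bp. The region at 3L 17871275 to 17872728 had a score of 651.17 and a Kc peak 11.8 kb away. The leading sites of 3L thus ranged from direct neighbours of Kc peaks to sites far from any.

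On 3R the 5 strongest S2-only regions had scores from 756.71 to 847.32, closer together than on the other arms. The strongest, at 16840367 to 16841666, lay 1217 bp from a Kc GFP RNAi peak, and the region at 14215416 to 14217159, with a score of 835.3, lay 3.27 kb from one. The region at 3R 13914948 to 13916176, with a score of 799.84, was the most isolated of the 15 leading regions, since the nearest Kc peak was 67.2 kb away. The region at 3R 76512 to 77771 scored 818.37 and lay 17.4 kb from a Kc CP190 RNAi peak. The region at 3R 16889455 to 16892857 scored 756.71, was 3403 bp wide and lay 5.40 kb from a CP190 RNAi peak. It stood less than 50 kb from the strongest 3R region, in the same 100 kb window.

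Most S2-only regions were weaker than these. Their S2 scores ranged from 50.03 to 1944.77, with a median of 88.09 and quartiles of 64.73 and 138.925. S2 regions shared with Kc cells had a median of 247.39 (quartiles 112.16 and 522.48), so that the lower quartile of the shared regions lay above the median of the S2-only ones. A score below the median of all S2 regions was found in 78.1% of the S2-only regions (75.6 to 80.5%) and in 33.8% of the shared ones (31.7 to 35.9%). A score of 200 or more was reached by 151 S2-only regions (13.3%, 11.4 to 15.5%), and 500 or more by 27 (2.39%, 1.58 to 3.45%). Of the shared regions 55.7% reached 200 (53.5 to 58.0%).

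The share of S2-only regions fell with each step in score. In the lowest score quintile of S2 regions, with scores up to 72.18, 404 of 619 were S2-only (65.3%, 61.4 to 69.0%). It was 55.1% in the second (51.1 to 59.1%), 38.7% in the third (34.8 to 42.6%) and 18.3% in the fourth (15.3 to 21.5%). Of the top quintile, from 455.56, 35 of 618 regions were S2-only (5.66%, 3.98 to 7.79%). When S2 peaks with a score of 100 or more were set against all Kc peaks, 478 were S2-only and the share was 23.7%. With that threshold on all 3 lists, 742 were S2-only and the share was 36.7%, against 36.6% without a threshold. The score is not normalized between libraries, so this cut need not be equally strict in each list. The share also moved with the Kc list used. With the Kc GFP RNAi library left out, 66.7% of the S2 regions had no peak of the remaining Kc list, and 41.8% had none with the Kc CP190 RNAi library left out.

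The Kc control list showed a similar gradient from its own side. There, single Kc peaks were set against the S2 list alone, whereas S2-only regions lack a peak of either Kc list. Of its 2873 peaks on the 3 arms, 1027 had no S2 peak, which was 35.7%. That share was 58.1% in the lowest score quintile of the Kc list (53.9 to 62.2%) and 7.49% in the highest (5.47 to 9.96%). In either line, therefore, few of the strongest sites lacked a counterpart in the other.

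S2-only regions were also narrow. Their S2 peaks were 316 to 6214 bp wide, with a median of 1005 bp and quartiles of 848 and 1412 bp, against a median of 1393 bp for the shared S2 regions (1069 and 2053 bp). Of the S2-only regions 10.2% were at least 2000 bp wide (8.54 to 12.2%), and of the shared ones 26.8% (24.8 to 28.8%). By width, 68.0% of the regions in the lowest quintile, up to 915 bp, were S2-only (64.2 to 71.7%). This share was 18.1% in the widest quintile, from 2026 bp (15.2 to 21.4%).

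The widest S2-only regions had modest scores. The widest, at 2L 8697841 to 8704054, spanned 6214 bp with a score of 85.77, and a Kc peak lay 4.55 kb away. The region at 2L 22469557 to 22474653 spanned 5097 bp with a score of 172.16, and the region at 3R 22636691 to 22641429 spanned 4739 bp with a score of 124.12. The remaining members of the 5 widest, at 3R 16883667 to 16887924 and at 3L 10364435 to 10368668, spanned 4258 and 4234 bp. The 3L region was 85.9 kb from the nearest Kc peak. Both of these lay inside runs of S2-only regions.

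Score and width each went with the share when the other was held within a quintile. In the lowest score quintile 187 of 228 narrow regions were S2-only (82.0%, 76.4 to 86.8%) and 33 of 76 wide ones (43.4%, 32.1 to 55.3%), taking narrow and wide as the outer width quintiles. In the fourth score quintile these shares were 29.7% (19.7 to 41.5%) and 7.28% (3.69 to 12.7%). Among the highest-scored regions 2 of 16 narrow and 6 of 161 wide ones were S2-only, and the intervals overlapped (1.55 to 38.3% and 1.38 to 7.93%). Under the overlap rule 66.4% of the S2-only regions were narrower than the median S2 region (63.6 to 69.2%). When S2 peaks counted as met only with a Kc peak centre within 250 bp of their own, a stricter rule that left 1526 unmet, 52.8% of the unmet peaks were narrower than the median S2 peak. The part of the overlap rule itself in the width difference was not tested.

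**Figure D1:**
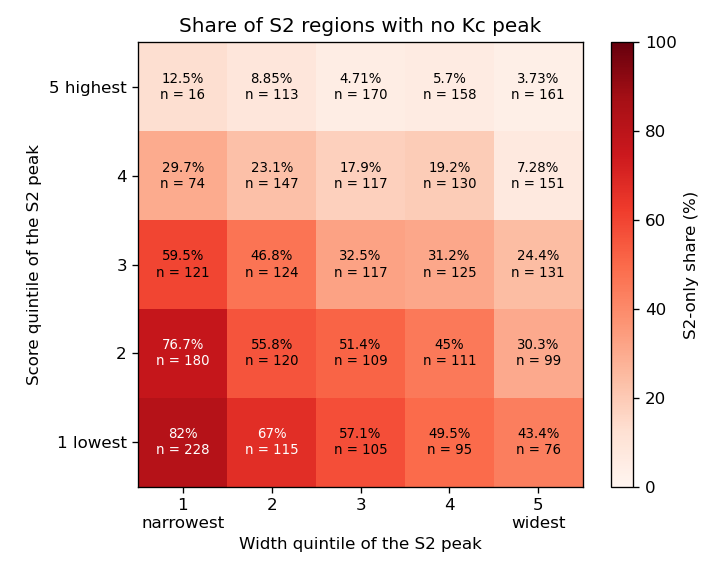
Percentage of S2 regions with no Kc peak in each combination of score quintile (vertical) and width quintile (horizontal) of the S2 peak on 2L, 3L and 3R, with the number of S2 regions in each cell. The share falls from 82.0% among weak, narrow regions to 3.73% among strong, wide ones.

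The width gradient was not found from the Kc side, where Kc control peaks were again set against the S2 list alone. Of the Kc control peaks on the 3 arms, 34.4% of the narrowest quintile had no S2 peak (30.6 to 38.5%) and 34.8% of the widest (30.9 to 38.9%). The 3 quintiles between them lay from 33.6% to 38.8%.

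Set beside the 3 classes of shared S2 regions, the S2-only regions were like one class in score and like another in width. The 885 S2 regions found in both Kc lists had a median score of 194.36 and a median S2 peak width of 1765 bp. The 919 regions shared with the Kc control list alone had the highest median score, 353.11, with a narrow median width of 1143 bp. The 157 regions shared with the CP190 RNAi list alone had a median score of 94.9, close to the 88.09 of the S2-only regions, but a median width of 1553 bp. In score, the S2-only regions thus stood nearest to sites that met a Kc peak only after CP190 RNAi, and in width nearest to sites that met one only in the Kc control.

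**Figure D2:**
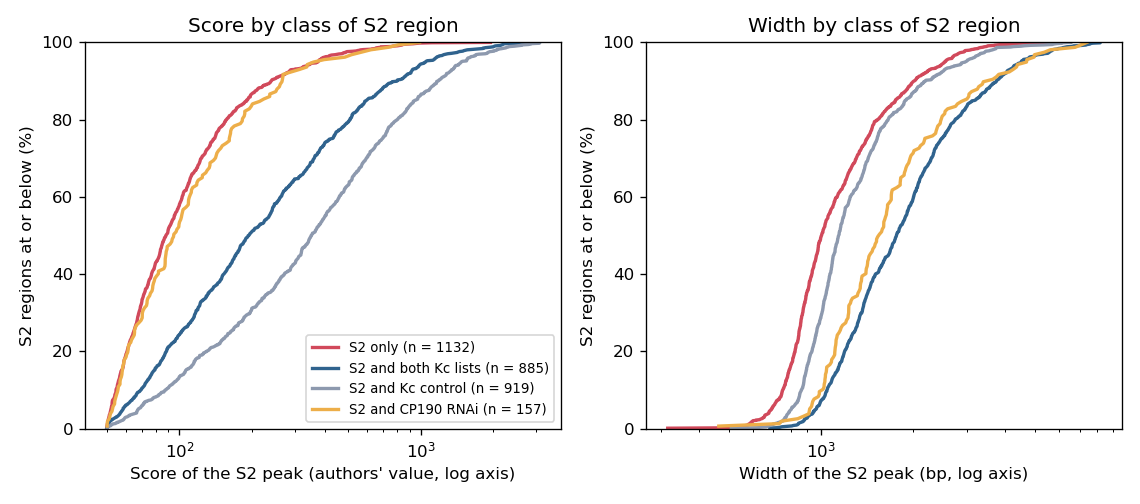
Cumulative percentage of S2 regions on 2L, 3L and 3R at or below each score (left, log axis) and each width in bp (right, log axis), with 1 line per class of S2 region. The S2-only line (median score 88.09, median width 1005 bp) runs beside the class shared with CP190 RNAi alone in score and beside the class shared with the Kc control alone in width.

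Width also separated S2-only regions from those met after CP190 RNAi. Of the 1289 S2 regions without a Kc control peak, 157 had a CP190 RNAi peak (12.2%, 10.4 to 14.1%) and the other 1132 were the S2-only regions. The share with a CP190 RNAi peak was 6 of 427 in the narrowest width quintile (1.41%, 0.517 to 3.03%) and 44 of 156 in the widest (28.2%, 21.3 to 36.0%). By score it went from 10.8% in the lowest quintile (8.11 to 14.0%) to 16.7% in the highest (6.97 to 31.4%), with overlapping intervals. The same limit applies to this width difference.

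The S2-only share differed between chromosome arms. It was 41.2% on 2L, where 397 of 963 S2 regions were S2-only (38.1 to 44.4%), 35.2% on 3L with 357 of 1015 (32.2 to 38.2%) and 33.9% on 3R with 378 of 1115 (31.1 to 36.8%). The intervals of 2L and 3R did not overlap, whereas those of 2L and 3L overlapped narrowly and those of 3L and 3R widely. As these intervals take regions as independent and neighbouring regions tended to be alike, they may be too narrow. The median S2 score of the S2-only regions was nearly equal on the 3 arms, with 87.81 on 2L, 87.32 on 3L and 89.495 on 3R. In each score quintile the share was higher on 2L than on either other arm, for example 63.9% on 2L (56.6 to 70.7%) against 54.7% on 3L (47.6 to 61.7%) and 48.0% on 3R (41.4 to 54.7%) in the second. In the highest quintile the 3 shares were 6.63%, 4.74% and 5.75%, with overlapping intervals.

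On X and chromosome 4, which lie outside the rule, the same count gave values on either side. Other sequences outside the 3 arms were not compared here. On X 230 of 818 S2 regions had no Kc peak, or 28.1% (25.1 to 31.3%), and on chromosome 4 it was 64 of 117, or 54.7% (45.2 to 63.9%). The interval of X lay below that of the 3 arms together, and the interval of chromosome 4 above it. The S2-only regions of X had a median score of 94.985 and a median width of 908.5 bp, and those of chromosome 4 a median score of 86.94 and a median width of 1272.5 bp. How many copies of each arm the cell lines carry was not measured, and its part in these shares was not tested.

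**Figure D3:**
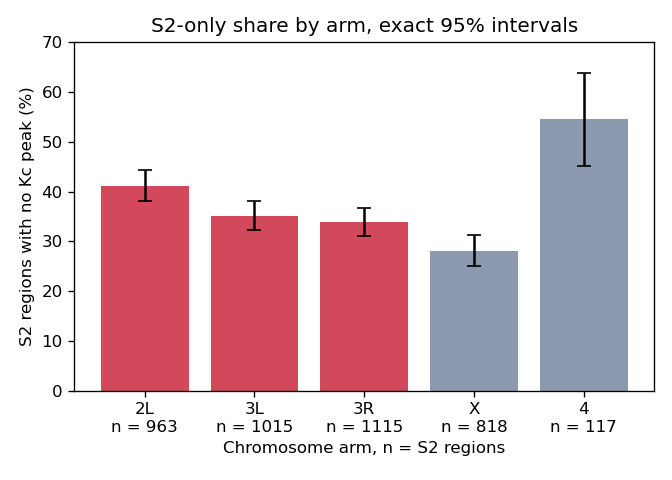
Percentage of S2 regions with no Kc peak on 2L, 3L and 3R (red) and, for comparison, on X and chromosome 4 (grey), with exact 95% binomial intervals and the number of S2 regions under each bar. The share is 41.2% on 2L, 35.2% on 3L and 33.9% on 3R, with overlapping intervals for 2L and 3L, and 28.1% on X and 54.7% on 4.

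By the rule no S2-only region overlapped a Kc peak, so the gaps to Kc peaks are given as a description. Most were of some kilobases. The gap from an S2-only region to the nearest Kc peak of either list had a median of 6896.5 bp, with quartiles of 2744 and 16093 bp. A gap of at most 1000 bp was found for 111 regions (9.81%, 8.14 to 11.7%), at most 5000 bp for 455 (40.2%, 37.3 to 43.1%), and 32 lay over 50000 bp away (2.83%, 1.94 to 3.97%). The nearest Kc peak belonged to the longer GFP RNAi list for 835 regions, to the CP190 RNAi list for 289, and was equally near in both for 8. From the lowest to the highest score quintile the median gaps were 6370, 6349, 7368, 8935 and 7017 bp, the last over 35 regions.

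At the border of the rule, the S2-only regions nearest to a Kc peak lay at 2L 10411819 to 10412868 and at 3R 22479907 to 22480755, each 34 bp from one, and at 3R 4044383 to 4046876, 42 bp from one. Their scores were 50.72, 60.98 and 67.53. Just on the other side, the S2 peaks that shared the fewest bases with a Kc peak lay at 3R 7016554 to 7017362 with 3 bp, at 2L 22887364 to 22888201 with 12 bp and at 3R 18951731 to 18953131 with 25 bp, with scores of 57.44, 58.56 and 108.67. Such cases were few. Of the 2002 S2 peaks that met a Kc peak, 6 did so by under 100 bp, and the median shared part was 94.1% of the S2 peak. The region farthest from any Kc peak lay on 2L at 18299466 to 18300386, with a score of 287.82 and a gap of 140 kb, and was S2-only on both sides.

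**Figure D4:**
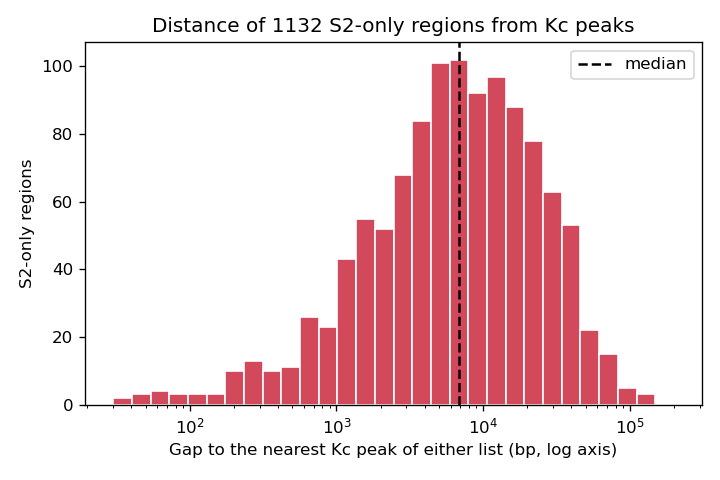
Number of S2-only regions (vertical) by the gap in bp to the nearest Kc peak of either list (horizontal, log axis), for the 1132 regions on 2L, 3L and 3R. The dashed line marks the median of 6896.5 bp, and 111 regions lie within 1000 bp.

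At 5 to 50 kb, the surroundings of S2-only regions were about as rich in S2 peaks as those of shared regions and poorer in Kc peaks. Within 5 kb of the centre, S2-only regions had on average 0.477 other S2 peaks and shared regions 0.393. For Kc GFP RNAi peaks these means were 0.303 and 0.335, and for Kc CP190 RNAi peaks 0.197 and 0.276. All counts of this paragraph leave out peaks, of S2 or Kc, whose centre lies inside the region itself. The Kc peaks that make a region shared are therefore not in its means. Shared regions also tended to be wider, so less of their 5 kb was counted, and the means within 5 kb are not strictly comparable. Between 5 and 50 kb from its centre, an S2-only region had on average 4.39 other S2 peaks, and a shared S2 region 4.46. For Kc GFP RNAi peaks these means were 3.71 around S2-only and 4.11 around shared regions, and for Kc CP190 RNAi peaks 2.90 and 3.38. Neighbouring regions share peaks in these counts, and the rule used the same Kc lists, so they are given as a description.

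Along the arms, the next S2 region was more often S2-only after an S2-only region than after a shared one. The next region to the right was S2-only for 470 of 1130 S2-only regions (41.6%, 38.7 to 44.5%) and for 660 of 1960 shared regions (33.7%, 31.6 to 35.8%). The direction was the same on 2L (46.7 and 37.3%), 3L (39.6 and 32.7%) and 3R (38.1 and 31.8%). The intervals overlapped on 3L and 3R and not on 2L (41.7 to 51.8% and 33.3 to 41.4%). It was also the same in each score quintile of the next region, with 61.8% after an S2-only region (54.9 to 68.2%) and 51.5% after a shared one (46.5 to 56.5%) in the second and 23.3% (18.0 to 29.4%) and 15.3% (11.9 to 19.3%) in the fourth. The step was widest between close neighbours. With under 5000 bp between the regions the shares were 45.0% (39.7 to 50.4%) and 31.7% (27.7 to 35.8%), and with more than 20000 bp they were 40.7% (35.8 to 45.7%) and 36.5% (32.8 to 40.2%).

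The size of these shares followed the lists used. With S2 peaks of a score of 100 or more they were 26.1% after an S2-only region (22.2 to 30.2%) and 22.8% after a shared one, which lies inside that interval. With the Kc GFP RNAi library left out they were 73.3% and 53.3%. Close neighbours can also be parts of 1 broad site that the peak caller divided, which was not tested. With peaks merged across gaps of 200 bp the shares were 41.0% and 33.0%, but such merging does not reach neighbours farther apart.

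**Figure D5:**
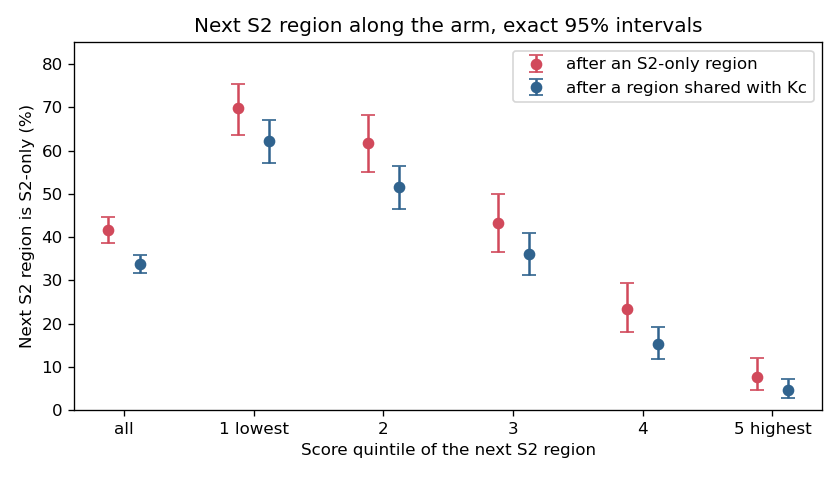
Percentage of cases in which the next S2 region along the arm is S2-only (vertical), after an S2-only region (red) and after a region shared with Kc (blue), for all regions and by the score quintile of the next region, with exact 95% binomial intervals. The red points lie above the blue ones in every quintile, with overlapping intervals within the quintiles, and at 41.6% and 33.7% for all regions.

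The 1132 S2-only regions formed 662 runs of consecutive S2 regions. Of these regions 401 stood alone, with no S2-only region as the next S2 region on either side (35.4%, 32.6 to 38.3%). Runs of 3 or more held 447 (39.5%, 36.6 to 42.4%). Runs of 6 or more numbered 13, of which 10 were on 2L. That arm held 963 of the 3093 S2 regions and 397 of the 1132 S2-only regions.

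The longest run comprised 8 S2-only regions over 216 kb of 2L, from 12768857 to 12985243. Their scores were, from left to right, 121.56, 51.69, 66.92, 155.58, 102.66, 75.05, 157.05 and 197.06, so that all of them were moderate or weak peaks. The run was not free of Kc sites, since 3 GFP RNAi peaks and 1 CP190 RNAi peak lay between its members. Its members lay from 1453 to 49645 bp from the nearest Kc peak.

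A run of 7 S2-only regions occupied the left end of 2L, from 9263 to 53025, where no Kc peak was called in either library. From left to right the scores were 67.01, 74.51, 52.19, 833.28, 627.61, 276.93 and 67.65, with 3 strong peaks in the middle. The gaps to the nearest Kc peak fell from 53410 bp at the first region to 11687 bp at the last, the first Kc peak of the arm being the GFP RNAi peak that begins at 64713. The window of 100 kb that holds this run, from 1 to 100000, had the most S2-only regions of any, with 10 of its 12 S2 regions, 2 Kc GFP RNAi peaks and 0 CP190 RNAi peaks.

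Of the other runs of 7 regions, the one with the higher summed score lay on 3L, from 11523640 to 11575944, with scores of 74.69, 173.47, 54.68, 64.96, 274.32, 83 and 157.84. The first 3 and the last 3 formed tight groups, each within a few kilobases, with 1 broader peak of 2594 bp between them. This run held 1 Kc CP190 RNAi peak and no GFP RNAi peak. Its window, 11500001 to 11600000, had 8 S2-only regions among 12 S2 regions.

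The densest window of 3R, from 16800001 to 16900000, had 9 S2-only regions among 12 S2 regions, with 4 Kc GFP RNAi and 2 CP190 RNAi peaks. Within it, 6 S2-only regions followed each other over 20.1 kb, from 16872788 to 16892857, with no Kc peak between them. Their scores were 58.49, 111.95, 62.7, 57.24, 71.26 and 756.71. The last of them is the strong region at 16889455 named above, and the 4258 bp region just before it is among the 5 widest. The other strong 3R region, at 16840367, lay in this window too. Dense windows of this kind were uncommon, as 33 of the 700 windows with an S2 region held 5 or more S2-only regions, whereas 539 held at least one.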

How the data were processed

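Gcn5 ChIP-seq peak lists of 3 libraries (Kc GFP RNAi, Kc CP190 RNAi, S2 GFP RNAi) were used, grouped by the sample titles. Each list was deposited by the authors with a position and a score per peak, and the score is not normalized between libraries. The submitters' processing notes name the dm3 build and, as tools, Bowtie, bedtools, HOMER and MACS. No source used here gives their roles, versions or thresholds, or the scale of the score. The lowest score of each list is 50 to 50.08.

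The prefix of the Kc sequence names was removed and starts were taken as 0-based. A union region took the highest score and the largest width of its S2 peaks. Quintiles were formed over the 3093 S2 regions of 2L, 3L and 3R. Intervals are exact (Clopper-Pearson) 95% binomial intervals from SciPy 1.17.1, with Python 3.11.15. The merging was tested on simulated data. The members, lists and comparisons were chosen with earlier results of these data known. Regions were named by rule: the 5 highest-scored of each arm, the 5 widest, the 3 longest runs, the 3 fullest windows and the cases at the border of the rule. The region farthest from Kc peaks and the run of 6 regions on 3R were added after their values were seen. Planned comparisons of promoters, gene lists and motifs were not run, since the gene table at hand is on Release 6 and no dm3 reference was used here.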

Additional observations from a re-analysis of the deposited data

How the results depend on the processing

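The direction of the score, width, neighbour and 2L results was the same under all 9 planned settings, and their size varied. The share of S2 regions without a Kc peak (36.6%) was 41.4% with 50% reciprocal overlap, 48.7% with centres within 250 bp, 32.6% with peaks within 1000 bp, 23.7% with S2 scores of 100 or more, 36.7% with scores of 100 or more in all lists, 31.7% with lists of equal length, 35.9% with peaks merged across gaps of 200 bp, 41.8% with the Kc GFP RNAi list alone and 66.7% with the CP190 RNAi list alone. The share of S2-only regions with a score below the median (78.1%) was 73.6% with reciprocal overlap, 67.3% by centres, 73.5% with scores of 100 or more in all lists and 53.0% with the CP190 RNAi list alone, which leaves the strong sites shared with the Kc control among the unmet ones. The share below the median width (66.4%) was 61.0%, 52.8%, 62.0% and 62.7% with reciprocal overlap, by centres, with the Kc GFP RNAi list alone and with the CP190 RNAi list alone. The share followed by another S2-only region (41.6%, against 33.7% after a shared region) was 47.3% against 37.3% with reciprocal overlap, 53.3% against 44.2% by centres, 26.1% against 22.8% with S2 scores of 100 or more, 34.5% against 30.3% with equal lists, 45.7% against 39.0% with the GFP RNAi list alone and 73.3% against 53.3% with the CP190 RNAi list alone. The step at S2 scores of 100 or more was within the interval of the first share (22.2 to 30.2%). The cause of these shifts was not tested. The excess of 2L over 3L and 3R together (6.72 points) was 4.22 to 7.62 points. This comparison and the count by S2 peaks in place of regions (36.1%) were added after the data were seen. Between centres the median distance to a Kc peak was 8296 bp, 40.2% of the regions lay within 5000 bp, and windows of 50 kb held at most 6 S2-only regions. Depth is unknown and limits all counts of unmet peaks. No paired analysis was possible because every condition has a single library, which also leaves no replicate to omit.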

Other observations

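The ends of the arms were looked at after the run at the left end of 2L was seen. In the last 1 Mb of 2L, on its centromeric side, 28 of 43 S2 regions were S2-only (65.1%, 49.1 to 79.0%), against 40.6% of the 872 regions between the end segments (37.3 to 43.9%). The first 1 Mb of 2L had 15 of 48 (31.3%, 18.7 to 46.3%), so that the 10 S2-only regions of its first 100 kb window were most of those in that segment. On 3R the first 1 Mb, next to the centromere, had 22 of 49 (44.9%, 30.7 to 59.8%) and the last 1 Mb 15 of 34 (44.1%, 27.2 to 62.1%), against 33.0% between them (30.2 to 36.0%). On 3L the first 1 Mb had 15 of 34 and the last 1 Mb 4 of 7, against 34.7% between them (31.7 to 37.8%). The intervals of the end segments of 3L and 3R included the value of their arm's middle. The segments were taken from the farthest peak end of each arm, not from its full length.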
